A study of Homo sapiens with 12 samples.

Results

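The kinesin motor genes were described in KYSE150 and KYSE410, established human esophageal cancer cell lines, kept in high or low oxygen. The members are the genes whose symbol in both deposited tables is KIF or KIFC followed by a number and, for some, a letter A to C. 37 of the 26115 genes shared by the tables met this rule, of which 12 are mitotic motors, 13 are cargo motors and 12 are remaining kinesins. KIF12 and KIF25 appeared in the KYSE150 table only and KIF6 in the KYSE410 table only, and they were left out. KIFAP3 and KIFBP, which carry no motor domain, are partners and not members.

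Each line, labelled wild type in genotype, was kept at 21% oxygen (normoxia) or at 0.5% oxygen (hypoxia, with a labelled time point of 48 h), with 3 libraries per line and oxygen level. The normoxic libraries carry a time point of 0, whereas the series' design text gives 48 h for both oxygen levels, so the length of the normoxic culture is not settled. The labels do not say that replicates came from separate cultures, and p-values therefore measure the spread between these libraries, which may be technical. Values are FPKM, a level scaled by transcript length and by the number of mapped fragments. The unit was inferred from the values, and the read depth behind them is unknown. In bulk RNA, fewer cells in mitosis and less mRNA per mitotic cell cannot be told apart.

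The labels call both lines esophageal cancer. KYSE410 held the squamous markers TP63 at 33.3 to 51.3 FPKM and KRT5 at 165 to 483 FPKM. In that line EPCAM and CDH1 were at 77.4 to 100 and 46.4 to 90.6 FPKM. The keratins KRT8 and KRT18 were at 459 to 836 and 468 to 1018 FPKM in KYSE410, above their KYSE150 values given next. In KYSE150 the squamous and epithelial markers TP63, KRT5, KRT14, KRT6A, SOX2 and CDH1 were all under 0.5 FPKM, EPCAM was at 4.11 to 7.30 FPKM, and the simple keratins KRT8 and KRT18 were at 264 to 338 and 283 to 375 FPKM. SOX2 was near 0 in KYSE410 too. Of the markers of other cell types, PTPRC, PECAM1 and VWF were near 0 in both lines, and COL1A1 reached 6.05 FPKM in KYSE150. CD68, a lysosomal protein used as a macrophage marker, was at 15.3 to 17.5 FPKM in normoxic and 26.9 to 30.2 FPKM in hypoxic KYSE150, and at 29.5 to 32.6 FPKM in normoxic and 80.6 to 85.2 FPKM in hypoxic KYSE410, while the leukocyte marker PTPRC stayed under 0.05 FPKM. In KYSE410 the sample-sheet numbers run from 38 to 40 in normoxia and from 56 to 58 in hypoxia, so in that line oxygen and the library set, which is itself inferred from these numbers, cannot be told apart. The KYSE150 libraries are numbered 50 to 55.

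Kinesins are motor proteins that turn ATP hydrolysis into movement along microtubules, or into the disassembly of microtubule ends. Mitotic kinesins build the bipolar spindle, move and align chromosomes and complete cytokinesis, and most of their genes are transcribed late in the cell cycle, in G2 and M phase. Cargo kinesins carry vesicles, mitochondria and protein complexes, mainly towards microtubule plus ends, in dividing and non-dividing cells alike. Late cell-cycle genes are held down by the DREAM complex and switched on by MYBL2 and FOXM1 through a promoter element called the cell cycle genes homology region (CHR), often near CCAAT boxes that bind NF-Y. Hypoxia-inducible factor (HIF) binds a short core sequence in the promoters of its target genes.

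The promoters are printed for 6 mitotic motors, those among the 3 largest rises in KYSE150 or the 5 largest differences between the lines, and for KIF3A, the cargo motor with the largest fall in KYSE410. Each line runs 5′ to 3′ on the gene's strand from 100 bases before to 20 bases after the RefSeq start (GRCh38.p14), 120 bases in all. Capitals mark a CCAAT box (read as ATTGG in the reverse orientation) and the element TTTGAA, which reads TTCAAA when reversed. They also mark its variant TTCGAA. A further variant, TTTAAA, is marked too. KIF20A lies at chr5:138179012-138179131 (plus strand), KIFC1 at chr6:33391723-33391842 (plus), KIF2C at chr1:44739737-44739856 (plus), KIF14 at chr1:200620732-200620851 (minus), KIF18B at chr17:44947754-44947873 (minus), KIF23 at chr15:69414249-69414368 (plus) and KIF3A at chr5:132737527-132737646 (minus).
KIF20A: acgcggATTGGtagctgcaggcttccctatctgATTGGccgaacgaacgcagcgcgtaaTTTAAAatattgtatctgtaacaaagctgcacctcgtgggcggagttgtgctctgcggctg
KIFC1: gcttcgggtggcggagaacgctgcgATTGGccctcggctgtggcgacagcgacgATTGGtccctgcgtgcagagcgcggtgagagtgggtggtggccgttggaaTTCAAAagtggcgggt
KIF2C: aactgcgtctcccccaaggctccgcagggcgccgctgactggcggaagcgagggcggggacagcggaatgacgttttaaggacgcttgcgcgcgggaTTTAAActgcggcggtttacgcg
KIF14: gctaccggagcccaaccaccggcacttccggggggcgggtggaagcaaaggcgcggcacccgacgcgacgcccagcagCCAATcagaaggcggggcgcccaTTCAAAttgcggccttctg
KIF18B: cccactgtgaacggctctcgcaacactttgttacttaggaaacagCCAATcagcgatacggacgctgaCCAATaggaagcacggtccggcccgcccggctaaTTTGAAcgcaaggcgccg
KIF23: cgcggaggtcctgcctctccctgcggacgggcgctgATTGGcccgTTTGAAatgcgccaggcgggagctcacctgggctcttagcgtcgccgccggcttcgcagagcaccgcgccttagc
KIF3A: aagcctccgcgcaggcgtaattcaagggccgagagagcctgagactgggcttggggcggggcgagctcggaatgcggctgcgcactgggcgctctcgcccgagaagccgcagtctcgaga
The KIF20A window has 2 CCAAT boxes whose first bases lie at -94 and -67, counting the start as +1, with TTTAAA at -41. KIFC1 has boxes at -75 and -46 and a reversed TTTGAA at +5. KIF2C has TTTAAA at -3 and no box. KIF14 has a box at -22 and a reversed TTTGAA at +2, and KIF18B has boxes at -55 and -32 and TTTGAA at +3. In KIF23 the box at -64 lies just before TTTGAA at -55. The KIF3A window has neither.

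RefSeq promoters, which cover 250 bases before to 50 bases after the start, were at hand for 12 of 12 mitotic, 11 of 13 cargo and 7 of 12 remaining kinesins. KIF13B, KIF5A, KIF21B, KIF26B, KIF27, KIFC2 and KIFC3 had no entry. The promoter counts here and below are counts of genes. A gene with several RefSeq starts, such as KIF22, KIF1A, KIF1B, KIF5C or KIF9, was counted if any of its promoters matched. TTTGAA or TTCGAA, the CHR letters searched on both strands, occurred in 10 of 12 mitotic, 1 of 11 cargo (KIF5B) and 2 of 7 remaining promoters (KIF24 and KIF4B), against 19.5% of the 27305 genes with a promoter. CCAAT occurred in 10 of 12 mitotic, 4 of 11 cargo and 2 of 7 remaining promoters, against 39.7% of all. Both together occurred in 9 of 12 mitotic promoters, against 7.85% of all. The mitotic promoters without TTTGAA or TTCGAA were those of KIF20A and KIF2C, and each of these held TTTAAA. With TTTAAA added, a choice made after the promoters were read, 12 of 12 mitotic promoters held an element or variant, against 29% of all. In the last 100 bases before the start the count with TTTGAA or TTCGAA was 6 of 12, against 6.14% of all, since KIFC1, KIF14, KIF18B and KIF20B hold it just past the start.

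The HIF core, searched as ACGTG and GCGTG on both strands, occurred in 11 of 12 mitotic, 8 of 11 cargo and 4 of 7 remaining promoters, against 52.4% of all. KIF20A was the mitotic motor without it. In the last 100 bases before the start it occurred in 4 of 12 mitotic, 2 of 11 cargo and 2 of 7 remaining promoters, against 28.1% of all, so the mitotic share lay near that of all genes there. A match is a run of letters and not a shown binding site. TTCGAA and TTTAAA read the same on both strands, and none of these motifs was tested for use in the cells.

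**Figure D1:**
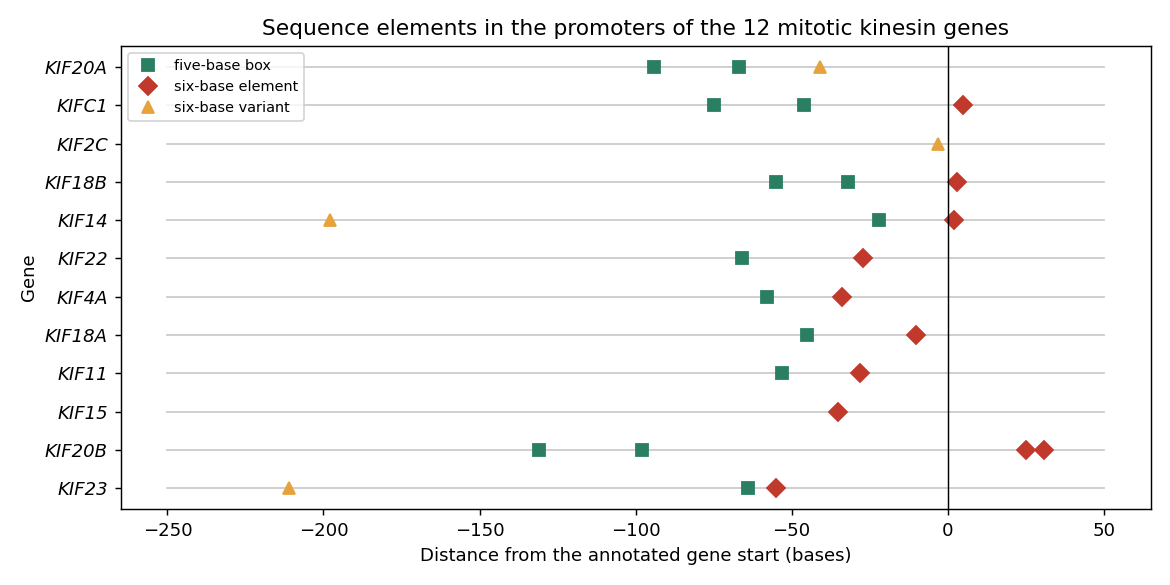
Positions of the CCAAT box (green squares), TTTGAA or TTCGAA in either orientation (red diamonds) and TTTAAA (yellow triangles) in the promoters of the 12 mitotic kinesin genes, with 1 row per gene, with distance in bases from the annotated start on the x axis. In 10 of 12 genes a box lies upstream of the start, and KIF20A and KIF2C carry the variant without the element.

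All 12 mitotic kinesins rose in hypoxic KYSE150 cells, while 8 of 12 fell and 1 rose in hypoxic KYSE410 cells (limma on log2 of FPKM plus 1, Benjamini-Hochberg adjusted over all tested genes, called under 0.05). Both responses are read against many calls: 62.3% of all genes were called in KYSE150 and 83.1% in KYSE410. In detail, 23.5% of the 12692 genes tested in KYSE150 were called higher and 38.8% lower, and in KYSE410 31.2% of 12054 were called higher and 51.9% lower. The 8 falls of 12 in KYSE410 are thus not far from the share of all genes that fell there. Summed over the 12 genes, mitotic kinesin mRNA went from 192 ± 9.11 FPKM (SD, n = 3) in normoxia to 419 ± 8.0 FPKM in hypoxia in KYSE150, and from 210 ± 1.67 to 158 ± 5.78 FPKM in KYSE410. In KYSE150 the 3 hypoxic libraries lay above the 3 normoxic ones for all 12 genes, against 27.0% of all tested genes above, 42.6% below and 69.6% either way. In KYSE410 they lay below for 8, above for 1 and overlapped for 3, against 52.7% of all genes below, 31.9% above and 84.6% either way. The normoxic sums of the lines lay close together, although levels across separately deposited tables are a description only.

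The response itself differed between the lines. The difference in log2 response (KYSE410 minus KYSE150) was called for all 12 mitotic motors and was negative in each, with a median of -1.57, against a median of -0.09 over the 12653 genes tested jointly. In that test 63.3% of genes were called, 36.0% lower and 27.3% higher. Within each line the mitotic median was 0.86 in KYSE150, where the median of all tested genes was -0.13, and -0.55 in KYSE410, where the median of all was -0.21. Relative to the median of all genes, the mitotic median stood at 0.99 in KYSE150 and at -0.34 in KYSE410. Other scalings moved the median of all genes to 0.02 in KYSE150 (median-of-ratios) and to -0.03 (median-of-ratios) or -0.42 (common sum) in KYSE410, whereas the relative values ranged from 0.87 to 1.04 and from -0.55 to -0.24 over the settings tried.

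**Figure D2:**
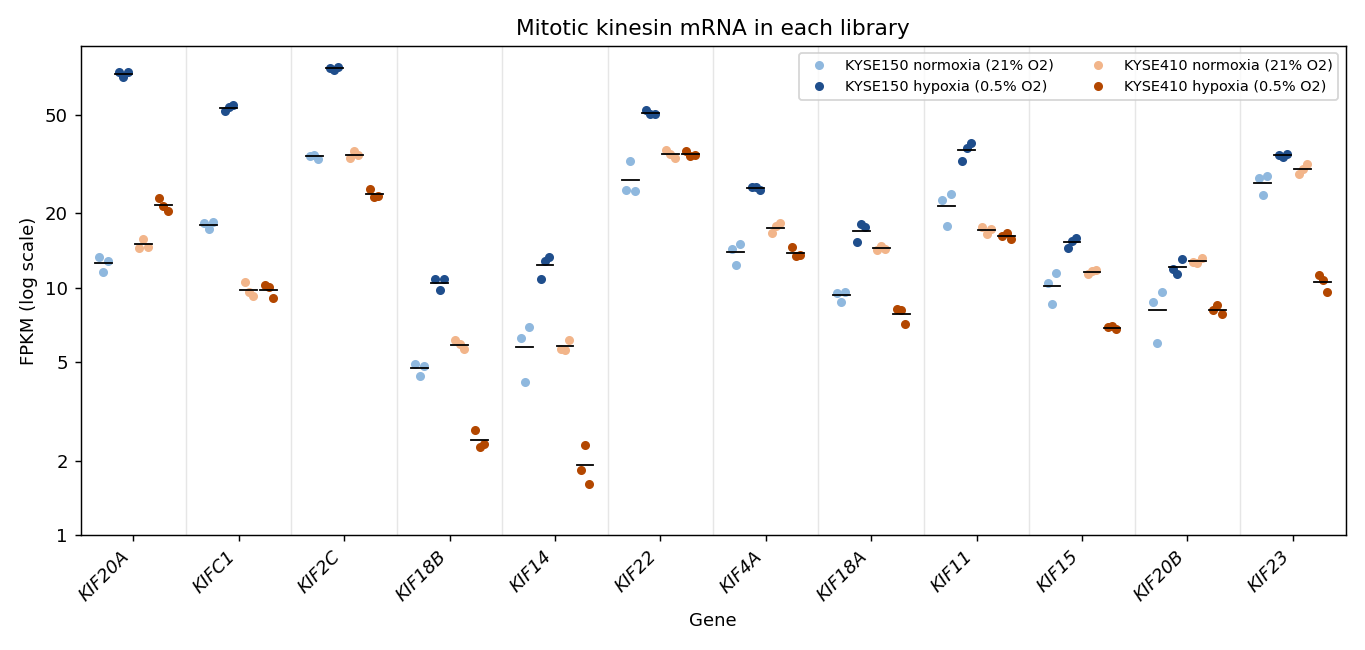
FPKM of the 12 mitotic kinesin genes on a log axis, one point per library and a bar at each group mean, ordered by the change in KYSE150. In KYSE150 the hypoxic points (dark blue) lie above the normoxic ones (light blue) in all 12 genes, while in KYSE410 the hypoxic points (dark orange) lie below in 8, above in KIF20A, and overlap in KIF11, KIF22 and KIFC1.

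Cytokinesis motors held both the largest and the smallest rise in KYSE150. KIF20A (MKLP2; chromosome 5, 138178719 to 138187715, plus strand, GRCh38), which brings the chromosomal passenger complex to the central spindle, measured 13.3, 11.6 and 12.8 FPKM in normoxic KYSE150 and 74.7, 71.2 and 74.8 FPKM in hypoxia. In KYSE410 it measured 14.5, 15.8 and 14.6 FPKM in normoxia and 23.2, 21.5 and 20.4 FPKM in hypoxia. The groups did not overlap in either line, and KIF20A was the only mitotic motor higher in both. Its FPKM was 5.85 times the normoxic mean in KYSE150 (log2 change 2.46, SE 0.074, limma adjusted p = 5.34e-07) and 1.45 times in KYSE410 (0.51, SE 0.057, adjusted p = 4.12e-05). The responses differed by -1.95 (adjusted p = 1.57e-08).

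KIF23 (MKLP1; chromosome 15, 69414246 to 69448427, plus strand), the motor of the centralspindlin complex that bundles midzone microtubules, showed the opposite balance. It measured 27.7, 23.8 and 28.4 FPKM in normoxic KYSE150 and 34.3, 33.9 and 34.8 FPKM in hypoxia, a log2 change of 0.36 (SE 0.083, limma adjusted p = 0.00615). In KYSE410 it went from 28.9, 30.2 and 31.8 FPKM to 11.3, 10.7 and 9.65 FPKM, a log2 change of -1.44 (SE 0.061, adjusted p = 1.11e-07). On this scale it was the smallest rise and the largest fall of the 12 mitotic motors, although by the ratio of FPKM means KIF14 fell slightly further in KYSE410 (0.329 against 0.348 for KIF23). RACGAP1, its partner in centralspindlin, went from 47.3 to 94.1 FPKM (KYSE150) and from 54.1 to 46.2 FPKM (KYSE410), so the motor and its partner moved by unlike amounts in both lines. The KYSE410 change of RACGAP1 (-0.22) was called as deposited but was -0.01 and not called under median-of-ratios scaling and turned to 0.0039 with the length trend removed.

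KIF14 (chromosome 1, 200551497 to 200620734, minus strand), which recruits citron kinase to the midbody, had the largest difference between the lines. Its levels were 6.24, 4.14 and 6.96 FPKM in normoxic and 10.9, 12.9 and 13.4 FPKM in hypoxic KYSE150. They were 5.65, 5.61 and 6.16 FPKM in normoxic and 1.82, 2.30 and 1.61 FPKM in hypoxic KYSE410. The normoxic levels of the lines overlapped, and the hypoxic levels did not: KYSE150 was at 2.14 times and KYSE410 at 0.329 times its own normoxic mean (log2 changes 1.00 and -1.23, limma adjusted p = 0.00118 and 3.18e-06). Citron kinase (CIT) rose in KYSE150 from 4.49 to 11.8 FPKM and was at 6.59 and 6.37 FPKM in KYSE410, where it was not called as deposited. Its KYSE410 change was called higher under median-of-ratios scaling (0.14), quantile normalization (0.29) and length removal (0.47) and lower with a common sum (-0.25). KIF20B (MPP1; chromosome 10, 89701610 to 89774939, plus strand), another midzone motor, measured 8.72, 6.0 and 9.62 FPKM in normoxic and 11.9, 11.4 and 13.1 FPKM in hypoxic KYSE150. In KYSE410 it measured 12.7, 12.6 and 13.2 FPKM and then 8.11, 8.50 and 7.83 FPKM. Its KYSE150 rise (0.55, limma adjusted p = 0.015) was the least certain of the 12 and missed the threshold without hypoxia replicate 3 (adjusted p = 0.0562) and with no filter on low values (adjusted p = 0.0624). KIF4A (chromosome X, 70290090 to 70420832, plus strand) works with PRC1 to set the length of midzone microtubules. It measured 14.4, 12.4 and 15.0 FPKM in normoxic and 25.5, 25.7 and 24.8 FPKM in hypoxic KYSE150, and 16.6, 17.7 and 18.2 FPKM in normoxic and 14.6, 13.4 and 13.6 FPKM in hypoxic KYSE410. The KYSE410 fall of KIF4A (-0.32, adjusted p = 0.000413) was the smallest of the 8, and it was not called under median-of-ratios scaling (-0.12) or quantile normalization (-0.10) and was 0.01 with the length trend removed. PRC1 moved in the same directions, from 71.3 to 117 FPKM (KYSE150) and from 33.5 to 18.6 FPKM (KYSE410).

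Of the motors that set up the spindle poles, KIFC1 and KIF11 rose in KYSE150 and did not pass the test in KYSE410 as deposited. KIFC1 (HSET; chromosome 6, 33391536 to 33409924, plus strand) is a minus-end motor that clusters poles and extra centrosomes. It measured 18.4, 17.2 and 18.5 FPKM in normoxic and 51.8, 54 and 54.8 FPKM in hypoxic KYSE150, 2.97 times the normoxic mean (log2 change 1.52, SE 0.067, limma adjusted p = 2.05e-06). In KYSE410 it measured 10.6, 9.61 and 9.31 FPKM and then 10.2, 10.1 and 9.13 FPKM, and these groups overlap. KIF11 (Eg5; chromosome 10, 92593286 to 92655395, plus strand), the motor that slides spindle microtubules apart and the target of several antimitotic compounds, measured 22.6, 17.8 and 24.0 FPKM in normoxic and 32.6, 36.8 and 38.7 FPKM in hypoxic KYSE150. In KYSE410 KIF11 measured 17.7, 16.4 and 17.3 FPKM and then 16.1, 16.6 and 15.8 FPKM, also overlapping. TPX2, a spindle assembly factor that targets KIF11 to microtubules, rose from 87.4 to 144 FPKM in KYSE150 and fell from 122 to 74.2 FPKM in KYSE410. KIF15 (chromosome 3, 44761717 to 44873376, plus strand), which can stand in for KIF11 in keeping the spindle bipolar, did change in KYSE410. It measured 10.4, 8.63 and 11.5 FPKM in normoxic and 14.5, 15.4 and 15.9 FPKM in hypoxic KYSE150, and 11.4, 11.7 and 11.8 FPKM in normoxic and 6.92, 7.0 and 6.80 FPKM in hypoxic KYSE410.

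The motors that act on chromosomes and microtubule ends rose in KYSE150 as well. KIF2C (MCAK; chromosome 1, 44739818 to 44767767, plus strand), which depolymerizes microtubules to correct faulty kinetochore attachments, measured 34.3, 34.6 and 33.2 FPKM in normoxic and 77.6, 76.1 and 78.4 FPKM in hypoxic KYSE150. In KYSE410 KIF2C measured 33.4, 35.9 and 34.3 FPKM in normoxia and 25.1, 23.4 and 23.4 FPKM in hypoxia. It had the highest hypoxic level of the 12 in KYSE150, and the groups did not overlap in either line. KIF18B (chromosome 17, 44924709 to 44947711, minus strand), a partner of KIF2C at the ends of astral microtubules, changed in opposite directions, with log2 changes of 1.01 and -1.01 as deposited and ranges of 0.96 to 1.16 and -1.25 to -0.69 over the settings tried. KIF18B measured 4.94, 4.40 and 4.84 FPKM in normoxic and 10.9, 9.79 and 10.8 FPKM in hypoxic KYSE150, and 6.14, 5.92 and 5.63 FPKM in normoxic and 2.66, 2.27 and 2.32 FPKM in hypoxic KYSE410. KIF18A (chromosome 11, 28020620 to 28108308, minus strand), which damps chromosome oscillations on the metaphase plate, had changes of 0.80 and -0.81. KIF18A measured 9.57, 8.77 and 9.66 FPKM in normoxic and 15.3, 18.1 and 17.6 FPKM in hypoxic KYSE150, and 14.2, 14.8 and 14.4 FPKM in normoxic and 8.19, 8.14 and 7.13 FPKM in hypoxic KYSE410. KIF22 (Kid; chromosome 16, 29790719 to 29805385, plus strand), which pushes chromosome arms away from the poles, measured 24.8, 32.5 and 24.7 FPKM in normoxic and 52.3, 50.5 and 50.4 FPKM in hypoxic KYSE150. In KYSE410 KIF22 measured 36.1, 34.8 and 33.4 FPKM and then 35.6, 34.1 and 34.6 FPKM, and the groups overlap.

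KIF11, KIF22 and KIFC1 were thus the mitotic motors not called in KYSE410, with log2 changes of -0.08, -0.00 and -0.00 as deposited. Their sign there depended on the scaling: they were 0.12, 0.21 and 0.19 under median-of-ratios scaling and -0.31, -0.24 and -0.22 with libraries rescaled to a common sum. Each was called higher under the first of these scalings and lower under the second. KIF14, KIF15, KIF18A, KIF18B, KIF20B, KIF23 and KIF2C were called lower in KYSE410 under each setting in which they were tested, and KIF20A was called higher under each. KIF22 and KIFC1 share 13.0% and 12.7% of their exon bases with a gene on the opposite strand (AC009133.4 and RPL12P1), and because the strand setting is not given, reads of the partners cannot be told apart.

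**Figure D3:**
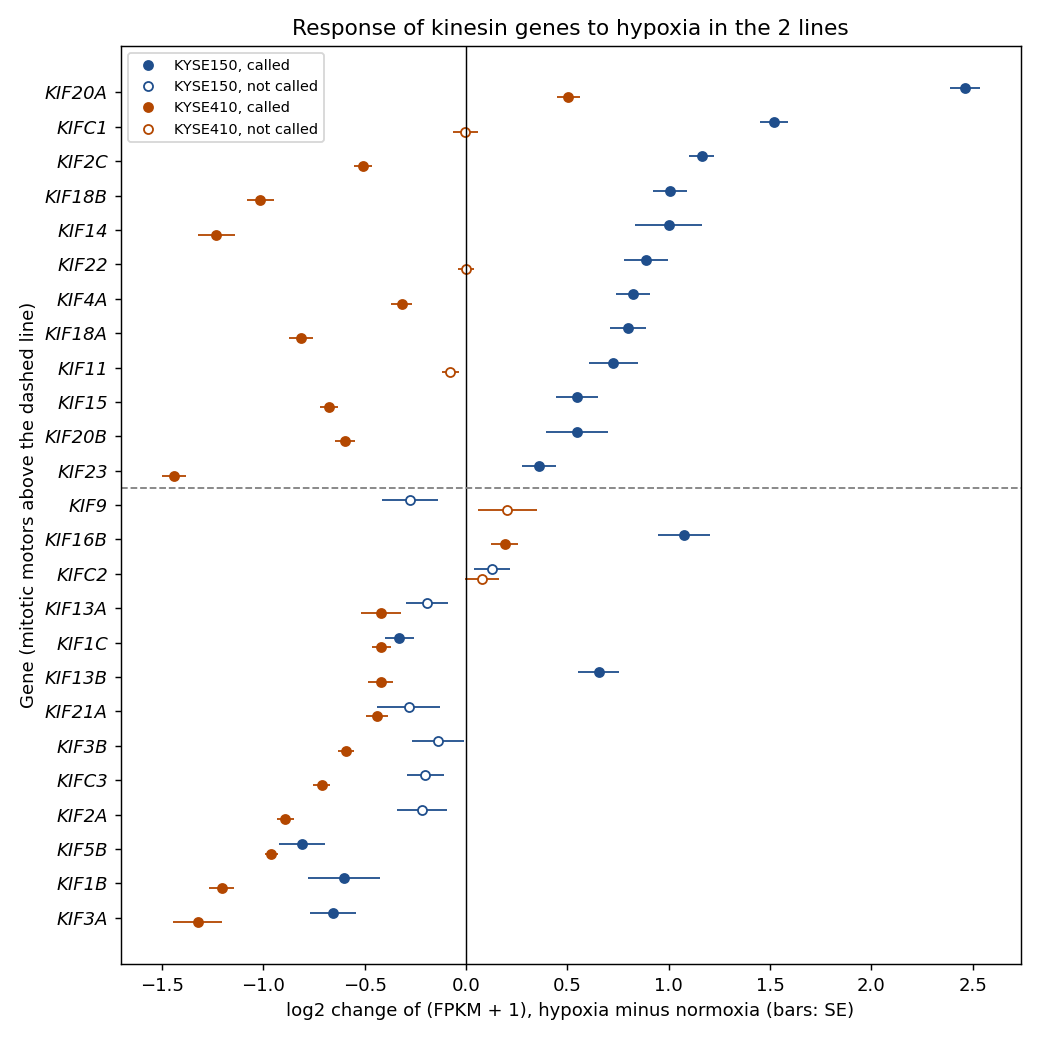
Log2 change of FPKM plus 1 in hypoxia, with SE bars, for the kinesins tested in both lines, mitotic motors above the dashed line. Filled points were called and open points were not, KYSE150 in blue and KYSE410 in orange, with values as deposited. The mitotic motors lie right of 0 in KYSE150 (0.36 to 2.46), and 8 lie left of 0 as calls in KYSE410, where the sign of KIF11, KIF22 and KIFC1 and the call of KIF4A depend on the scaling. KIF5B, KIF3A and KIF1B lie left of 0 in both lines.

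Of 20 spindle and cytokinesis partners, 19 rose and 1 fell (MAPRE1) in KYSE150 with a median of 0.74, against 23.5% of all genes higher and 38.8% lower. In KYSE410 1 rose (ANLN) and 17 fell with a median of -0.53, against 31.2% of all genes higher and 51.9% lower. Some of these falls were small: besides RACGAP1, the kinase AURKB fell by 0.13 with overlapping groups and was not called with no filter on low values, under quantile normalization (-0.05) or under median-of-ratios scaling (0.08). The response differed between lines, with KYSE410 lower, in 19 of 20, against 36.0% of all genes tested jointly. ANLN, the anillin scaffold of the cytokinetic ring, matched KIF20A in direction. It went from 28.0 to 202 FPKM (KYSE150) and from 56.1 to 118 FPKM (KYSE410). INCENP, the passenger-complex scaffold, went from 5.91 to 32.6 FPKM in KYSE150 and was not called in KYSE410 as deposited (7.0 and 8.56 FPKM), although it was under median-of-ratios scaling (0.43). HMMR, a spindle-pole protein, and AURKA, the spindle-pole kinase, rose by 1.51 and 1.39 on the log2 scale in KYSE150. In KYSE410 the largest falls were in the kinetochore adaptor KNSTRN (55 to 14.8 FPKM), the kinesin-like motor CENPE, which the symbol rule does not take in (8.74 to 2.58 FPKM), and TACC3 (14.3 to 6.26 FPKM).

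Of 16 regulators of mitotic transcription tested in KYSE150, 3 rose and 6 fell, where 62.3% of all genes were called (23.5% higher, 38.8% lower). Of 15 tested in KYSE410, 5 rose and 6 fell, where 83.1% of all were called (31.2% higher, 51.9% lower). FOXM1, named here after its values were seen, went from 28.5 to 39.9 FPKM in KYSE150 (log2 change 0.47, limma adjusted p = 0.000586) and from 21.7 to 19.2 FPKM in KYSE410 (-0.17, adjusted p = 0.017). Its KYSE410 change turned to 0.03 under median-of-ratios scaling and was not called there. MYBL2 was not called in KYSE150 as deposited (71.0 and 77.7 FPKM, log2 change 0.13), although it was called higher under the other scalings. In KYSE410 it was called higher (17.5 to 20.1 FPKM, 0.19, adjusted p = 0.0135), unlike most mitotic motors, and with a common sum it was -0.04 and not called. E2F4, the E2F member of the DREAM complex, fell in both lines, from 20.2 to 10.4 FPKM and from 53 to 30.9 FPKM. RBL2 (p130) went the other way and was called higher in both lines as deposited (log2 changes 0.57 in KYSE150 and 0.37 in KYSE410). LIN9, LIN37, LIN52 and LIN54 were not called in KYSE150. In KYSE410 LIN9 (-0.28) and LIN52 (-0.16) were called lower, while LIN37 and LIN54 were not called. The fall of E2F4 thus does not stand for all of these regulators. TFDP1, the E2F partner, fell in KYSE150 (89.6 to 54.4 FPKM) and rose in KYSE410 (33.7 to 46.1 FPKM). RBL1 (p107) fell in KYSE150 from 13.3 to 6.98 FPKM and was called higher in KYSE410, from 6.44 to 7.56 FPKM (0.20). E2F2 fell in KYSE150 from 6.71 to 3.67 FPKM and was under the filter in KYSE410. E2F1 rose in KYSE410 from 3.41 to 8.01 FPKM, while E2F3 fell from 5.13 to 1.45 FPKM and E2F7, a repressor of the E2F family, from 12.7 to 6.59 FPKM. In KYSE150 E2F7, named there after its values were seen, rose from 6.35 to 10.3 FPKM, so it moved in the direction of most mitotic motors in both lines. E2F8 was called in neither line (0.07 and -0.13).

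Of the 25 other kinesins, 17 were tested in KYSE150, where 3 rose and 6 fell, against 23.5% and 38.8% of all genes. In KYSE410 14 were tested, of which 1 rose and 10 fell, against 31.2% and 51.9% of all genes. The KYSE410 counts were 4 higher and 9 lower under median-of-ratios scaling and 4 and 6 with the length trend removed, and in KYSE150 5 were higher under each of these. The calls of all genes moved too. In KYSE410 4854 of 12027 genes were higher and 5160 lower under median-of-ratios scaling, and 4661 and 4581 of 11256 with length removed. In KYSE150 4013 of 12659 and 4085 of 11828 genes were higher under these settings. Between lines 9 of 17 had a lower response in KYSE410 and 1 of 17 a higher one, against 36.0% and 27.3% of all genes. Among cargo motors 2 of 9 rose and 5 of 9 fell in KYSE150, against 1 of 9 and 7 of 9 in KYSE410. The medians of the other kinesins were -0.22 and -0.43, against -0.13 and -0.21 for all tested genes. KIF1B, KIF1C, KIF3A and KIF5B fell in both lines, and KIF16B rose in both. Summed cargo FPKM went from 121 ± 16.7 to 90.8 ± 3.24 in KYSE150 and from 144 ± 2.54 to 85.2 ± 1.74 in KYSE410 (SD, n = 3). The KYSE150 counts are limited by normoxia replicate 2, the lowest normoxic library for 22 of 29 tested kinesins: without it 10 other kinesins were called lower. The mitotic median was then 0.79 in place of 0.86, with all 12 still called higher. FPKM summed to 413967 in that library, against 370573 and 366156 in normoxia replicates 1 and 3. How often it was the lowest over all genes was not counted.

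KIF5B (chromosome 10, 32009010 to 32056431, minus strand), the ubiquitous conventional kinesin heavy chain that carries mitochondria and vesicles, was the most abundant cargo motor in both lines in FPKM. It measured 55.3, 43.3 and 58.2 FPKM in normoxic and 27.9, 29.2 and 30.4 FPKM in hypoxic KYSE150. In KYSE410 it measured 65.0, 66.4 and 63.5 FPKM in normoxia and 32.5, 32.9 and 33.3 FPKM in hypoxia. The groups did not overlap, the falls were -0.81 and -0.96 on the log2 scale (limma adjusted p = 0.000511 and 3.63e-08), and the difference between them was not called as deposited (-0.15, SE 0.125, adjusted p = 0.305). It was called with a common sum (-0.40, adjusted p = 0.0487) and, in the opposite direction, with the length trend removed (0.18, adjusted p = 0.0495). The neuronal heavy chains KIF5A and KIF5C stayed under 0.06 FPKM in every library. Of the light chains that couple KIF5B to cargo, KLC1, KLC2 and KLC3 fell in both lines, while KLC4 rose in KYSE150 (8.80 to 12.7 FPKM) and was not called in KYSE410 as deposited (3.94 and 4.47 FPKM), although it was called higher there under median-of-ratios scaling (0.32), quantile normalization and length removal. KLC1 went from 47.5 to 25.0 FPKM (KYSE150) and from 41.8 to 20.6 FPKM (KYSE410), and KLC2 from 12.1 to 7.35 FPKM and from 14.4 to 5.95 FPKM.

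KIF3A (chromosome 5, 132692628 to 132737638, minus strand) and KIF3B (chromosome 20, 32277664 to 32335011, plus strand) form the heterotrimeric kinesin of intraflagellar transport with the accessory subunit KIFAP3. KIF3A measured 2.98, 2.29 and 3.15 FPKM in normoxic and 1.42, 1.29 and 1.52 FPKM in hypoxic KYSE150, and 7.64, 7.08 and 7.12 FPKM in normoxic and 1.70, 2.48 and 2.84 FPKM in hypoxic KYSE410. It fell in both lines, by 0.66 and 1.32 on the log2 scale. KIF3B measured 16.3, 12.2 and 17.7 FPKM in normoxic and 13.7, 13.5 and 14 FPKM in hypoxic KYSE150, where the groups overlap, and 28.2, 27.9 and 29.3 FPKM in normoxic and 18.5, 18.0 and 19.1 FPKM in hypoxic KYSE410, where they do not. KIFAP3 went the other way. It was at 9.16, 9.03 and 9.20 FPKM in normoxic and 10.6, 11.8 and 11.5 FPKM in hypoxic KYSE150, and at 6.21, 6.48 and 5.82 FPKM in normoxic and 13.3, 14.2 and 12 FPKM in hypoxic KYSE410. Its rise was 0.28 in KYSE150 (limma adjusted p = 0.0107), where it missed the threshold without hypoxia replicate 2 (adjusted p = 0.0531), and 0.98 in KYSE410 (adjusted p = 2.09e-06).

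KIF1B (chromosome 1, 10210805 to 10381603, plus strand), a carrier of mitochondria and synaptic vesicle precursors, measured 15.6, 9.62 and 15.9 FPKM in normoxic and 8.86, 7.78 and 8.86 FPKM in hypoxic KYSE150. In KYSE410 it measured 7.73, 8.79 and 8.44 FPKM and then 3.13, 2.84 and 3.14 FPKM. Its KYSE410 fall (-1.21) was called in every setting, whereas the KYSE150 fall (-0.60, limma adjusted p = 0.0181) was lost with no filter on low values and without normoxia replicate 1, normoxia replicate 3 or hypoxia replicate 2 (adjusted p from 0.0522 to 0.0759). KIFBP, which binds KIF1B and other kinesins and keeps them off microtubules, fell from 15.8 to 6.84 FPKM (KYSE150) and from 10.7 to 3.84 FPKM (KYSE410). KIF1C, a fast carrier of secretory vesicles, went from 19.6 ± 0.156 to 15.4 ± 1.00 FPKM and from 14.8 ± 0.0375 to 10.9 ± 0.561 FPKM. The KIF1C call was lost in KYSE150 under median-of-ratios scaling (-0.16), and with the length trend removed it was lost in KYSE150 (-0.27) and in KYSE410 (0.07).

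KIF16B and KIF13B were the cargo motors that rose in KYSE150. KIF16B (chromosome 20, 16272104 to 16573434, minus strand), which moves early endosomes outward, measured 5.21, 3.80 and 5.53 FPKM in normoxic and 10.6, 10.9 and 12.2 FPKM in hypoxic KYSE150. In KYSE410 it measured 3.68, 3.76 and 3.38 FPKM and then 4.6, 4.12 and 4.07 FPKM. Its KYSE150 rise (1.08) was called in every setting, while the KYSE410 rise (0.19, limma adjusted p = 0.0248) was lost with no filter on low values and without normoxia replicate 3 or hypoxia replicate 1, and was -0.00 with a common sum. KIF13B, a carrier of PIP3-bound vesicles on chromosome 8, measured 1.06, 0.837 and 1.17 FPKM in normoxic and 2.38, 2.03 and 2.13 FPKM in hypoxic KYSE150, and 3.59, 3.89 and 3.54 FPKM in normoxic and 2.51, 2.49 and 2.46 FPKM in hypoxic KYSE410. KIF13B was called in opposite directions (0.66 and -0.42), but the KYSE410 fall was not called under quantile normalization (-0.09) and was 0.09 with the length trend removed. Its paralogue KIF13A was not called in KYSE150 (-0.19) and fell in KYSE410 (-0.42), a call lost under median-of-ratios and quantile scaling and with the length trend removed (0.04). KIF17, a carrier in dendrites and cilia, fell from 1.92 to 1.28 FPKM in KYSE150, a call lost under quantile normalization, and was under 0.17 FPKM in KYSE410. KIF3C was not called in KYSE410 (3.55 and 3.92 FPKM) and was under the filter in KYSE150. KIF1A, a neuronal carrier, was under 0.05 FPKM in both lines.

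Of the 15 cargo adaptors and light chains 6 rose and 7 fell in KYSE150, where 62.3% of all genes were called (23.5% higher, 38.8% lower). Of 14 tested in KYSE410 5 rose and 8 fell, where 83.1% of all were called (31.2% higher, 51.9% lower). TRAK2, which links mitochondria to kinesin, fell from 5.0 to 0.97 FPKM (KYSE150) and from 5.24 to 2.42 FPKM (KYSE410). MAPK8IP3 (JIP3), a scaffold between KIF5 light chains and their cargo, rose from 2.76 to 6.03 FPKM and from 4.6 to 6.79 FPKM.

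**Figure D4:**
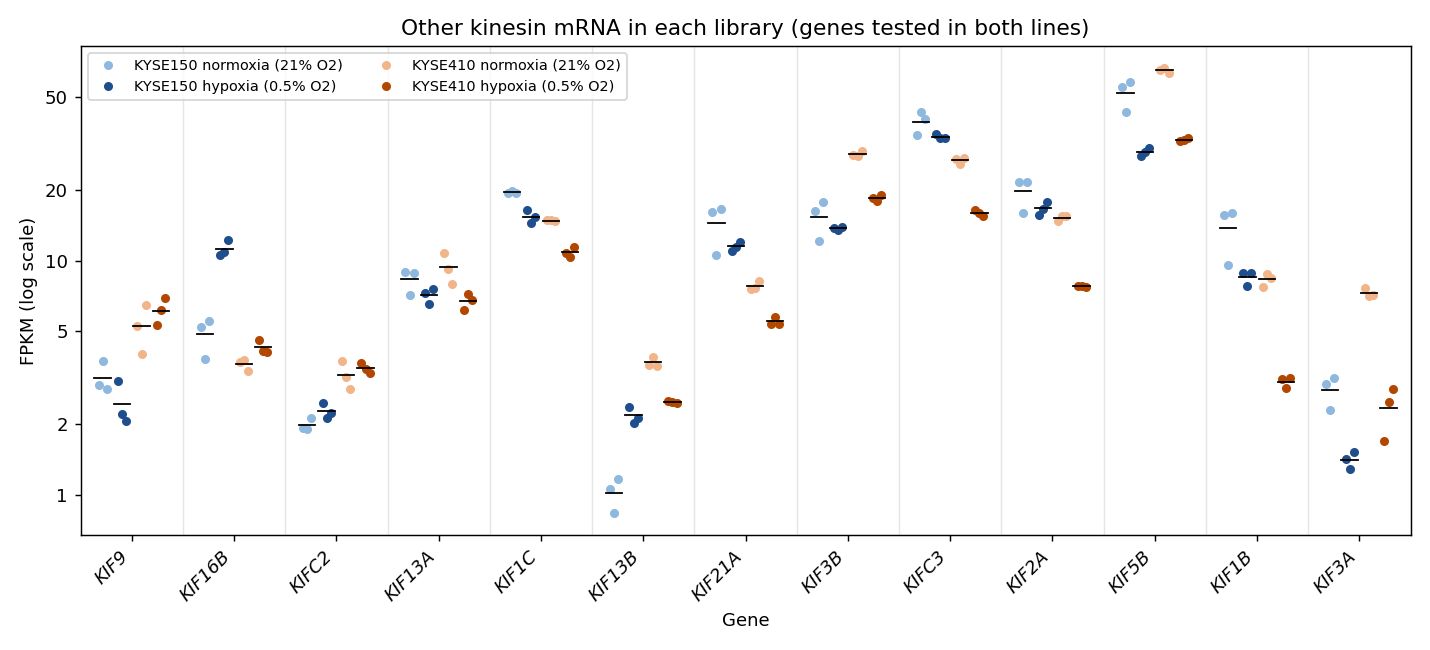
FPKM on a log axis of the kinesins outside the mitotic group that were tested in both lines, one point per library and a bar at each group mean, ordered by the change in KYSE410. KIF5B, KIF3A and KIF1B are lower in hypoxia in both lines, and KIF16B and KIF13B are higher in hypoxic KYSE150.

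Of the remaining kinesins, KIF26A and KIF21B were expressed in KYSE150 and near 0 in KYSE410. KIF26A (chromosome 14, 104138723 to 104180894, plus strand), a kinesin without ATPase activity that acts in growth factor signalling, measured 13.7, 14 and 13.3 FPKM in normoxic and 21.5, 21.2 and 21.3 FPKM in hypoxic KYSE150, and stayed under 0.04 FPKM in KYSE410. KIF21B (chromosome 1, 200969390 to 201023700, minus strand), which restrains microtubule growth, fell in KYSE150 from 8.72, 5.75 and 9.43 FPKM to 3.36, 2.82 and 2.80 FPKM and was under 0.01 FPKM in KYSE410. Their differences between lines (-0.57 and 1.15) therefore rest on the KYSE150 response alone. KIF21A, the family member present in both lines, was not called in KYSE150 (14.5 and 11.5 FPKM) and fell in KYSE410 (7.81 to 5.50 FPKM), a call lost under quantile normalization and with the length trend removed (0.0033).

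KIF2A (chromosome 5, 62306162 to 62537249, plus strand), a microtubule depolymerase of spindle poles and neurons that the rule does not place among the mitotic motors, measured 21.7, 16.0 and 21.6 FPKM in normoxic and 15.7, 16.6 and 17.8 FPKM in hypoxic KYSE150. In KYSE410 it went from 14.7, 15.5 and 15.5 FPKM to 7.79, 7.76 and 7.74 FPKM, a fall of -0.89 (limma adjusted p = 2.05e-07). KIF2A shares 8.97% of its exon bases with IPO11 on the same strand. KIFC3 (chromosome 16, 57758217 to 57863053, minus strand), a minus-end motor at the Golgi and at cell junctions, measured 34.3, 43.2 and 40.2 FPKM in normoxic and 34.7, 33.3 and 33.5 FPKM in hypoxic KYSE150, where it was not called. In KYSE410 KIFC3 fell from 27.1, 25.8 and 27.5 FPKM to 16.4, 16.0 and 15.5 FPKM. KIF24, a depolymerase that controls centriole capping and whose promoter holds TTCGAA and CCAAT, measured 1.28, 0.975 and 1.48 FPKM in normoxic and 1.67, 1.48 and 1.94 FPKM in hypoxic KYSE150, and 1.42, 1.04 and 1.00 FPKM in normoxic and 0.377, 0.290 and 0.340 FPKM in hypoxic KYSE410. It was not called in KYSE150 as deposited (0.27, limma adjusted p = 0.0788) but was called higher under median-of-ratios scaling (0.37). KIF24 was under the filter in KYSE410, while the difference between lines was called (-0.95, adjusted p = 0.000136).

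KIF9 and KIFC2 were called in neither line. KIF9 was at 3.16 and 2.45 FPKM in normoxic and hypoxic KYSE150 and at 5.24 and 6.12 FPKM in KYSE410, and KIFC2 was at 1.99 and 2.27 FPKM and at 3.25 and 3.47 FPKM. Each shares more than 17% of its exon bases with genes on the opposite strand (17.9% and 17.8%). KIF4B, a near-identical copy of KIF4A with which it may share reads, was at 0.0511 to 0.221 FPKM. KIF7, the ciliary regulator of Hedgehog signalling, KIF26B and KIF27 were under the filter in both lines.

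Dynein, with its cofactor dynactin, moves towards microtubule minus ends. Of 22 tested dynein and dynactin genes 6 rose and 6 fell in KYSE150, against 23.5% of all genes higher and 38.8% lower. In KYSE410 9 rose and 11 fell, against 31.2% of all genes higher and 51.9% lower. With the directions pooled these counts were near the 62.3% and 83.1% of all genes called. PAFAH1B1 (LIS1), the dynein regulator, fell in both, from 32.8 to 17.5 FPKM and from 37.2 to 12.1 FPKM, while its partner NDE1 rose from 15.9 to 33.8 FPKM (KYSE150) and from 17.5 to 22.5 FPKM (KYSE410). The light chain DYNLL1 fell from 369 ± 68.1 to 138 ± 1.72 FPKM in KYSE150, and DYNLL2 fell from 11.5 to 5.09 FPKM. In KYSE410 the intermediate chain DYNC1I2 rose from 13.0 to 24.5 FPKM, DYNC1I1 rose from 0.807 to 2.81 FPKM, and the light intermediate chain DYNC1LI1 fell from 43.6 to 24.7 FPKM.

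Of the tubulins 5 of 13 rose and 2 of 13 fell in KYSE150, against 23.5% of all genes higher and 38.8% lower. In KYSE410 5 of 12 rose and 5 of 12 fell, against 31.2% of all genes higher and 51.9% lower. Only with the directions pooled were these counts near the 62.3% and 83.1% of all genes called. TUBB rose from 332 to 634 FPKM (KYSE150) and from 193 to 657 FPKM (KYSE410), and TUBB3 from 8.64 to 19.1 FPKM and from 8.60 to 52.4 FPKM. TUBA1B rose in KYSE410 from 361 to 805 FPKM. TUBB4B rose in KYSE150 (191 to 271 FPKM) and fell in KYSE410 (74.3 to 55.6 FPKM), as most mitotic motors did. TUBE1, the epsilon-tubulin of centrioles, fell from 11.2 to 3.13 FPKM and from 44.8 to 7.08 FPKM.

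The change in KYSE410 went with transcript length across all genes. Spearman's rho of the log2 change with transcript length, across genes, which are not independent replicates, was -0.27 in KYSE410 and 0.06 in KYSE150. In KYSE410 the 6 mitotic motors of over 2000 to 4000 bases had a median of -0.26, against -0.19 over all genes of that length. The 4 of over 4000 to 6000 bases had -0.50, against -0.34, and the 2 over 6000 bases had -0.91, against -0.48. In KYSE150 the same 3 classes had mitotic medians of 1.03, 0.77 and 0.77, against -0.17, -0.10 and -0.06 over all genes. The part of length in the KYSE410 falls was not tested beyond the fit with the length trend removed. In that fit 7 of the 12 mitotic motors were called lower and 4 higher, against 4581 and 4661 of 11256 genes.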

How the data were processed

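Messenger RNA of 12 libraries, 3 per line and oxygen level, was analysed. Per the labels' protocols, RNA was extracted with TRIzol and libraries were made with VAHTS mRNA capture beads and a VAHTS kit. Per the submitters' processing notes, bcl2fastq 2.20, fastp 0.22.0, HISAT2 2.2.1 and hg38 were used. How reads were quantified, against which annotation and with which strand setting, is not given in the sources used here. A table of FPKM values per gene symbol was deposited for each line, with the unit inferred from the values. The read depth is unknown, and no count test was run.

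Each table was fitted with limma 3.58.1 (R 4.3.3; trended empirical Bayes) on log2(FPKM + 1) over genes whose mean reached 1 FPKM, which understates changes of low genes. All 12 libraries were fitted together to test the difference between lines. p-values were Benjamini-Hochberg adjusted over all genes tested and called under 0.05. Each fit was also run on simulated normal noise in which few genes changed. Those data held no length trend and no shift between libraries, so they do not bear on the scaling or on transcript length. Gene positions and exon overlaps are from GENCODE 29 (GRCh38), promoters from RefSeq (GRCh38.p14).

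Members and lists were chosen with earlier results of these data known. Values per library are given for the 12 mitotic motors and, per contrast, the 6 other called kinesins with the largest change. From each companion list the 4 called genes with the largest change per line are named. For INCENP, TRAK2, MAPK8IP3, NDE1, TUBB4B, TFDP1 and RBL1, named by their KYSE150 change, the KYSE410 values were added. TRAK1, RBL2, LIN9, LIN37, LIN52, LIN54 and E2F8 were added after their values were seen and are given as deposited only. TPX2, PRC1, RACGAP1, CIT, KLC2 in KYSE150, KLC3, KLC4, KIFAP3 in KYSE150, AURKB, E2F7 in KYSE150, FOXM1 and MYBL2 were added as complex partners or regulators after their values were seen. Alternatives covered the pseudocount, filters, scalings, a replicate block, transcript length and leaving out each library.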

Additional observations from a re-analysis of the deposited data

Results flagged for a closer look

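The response to hypoxia differed between KYSE410 and KYSE150 for 22 kinesins in the joint limma fit (interaction of line and oxygen, Benjamini-Hochberg adjusted over 12653 genes, of which 63.3% were called). In KYSE410 the sample-sheet numbers differ between oxygen levels, so the difference between lines cannot be told apart from that of the library sets.

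For the mitotic motors the difference in log2 response (KYSE410 minus KYSE150) was -2.23 for KIF14, -2.02 for KIF18B, -1.95 for KIF20A, -1.80 for KIF23, -1.67 for KIF2C, -1.61 for KIF18A, -1.52 for KIFC1, -1.22 for KIF15, -1.14 for KIF20B, -1.14 for KIF4A, -0.89 for KIF22 and -0.80 for KIF11. All 12 were called under each of the 20 settings of the joint fit. Of these, KIF14, KIF15, KIF18A, KIF18B, KIF20B, KIF23, KIF2C and KIF4A rose in one line and fell in the other as deposited, with the KYSE410 fall of KIF4A dependent on the scaling.

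Among the cargo motors it was -1.08 for KIF13B, -0.88 for KIF16B, -0.67 for KIF3A, -0.60 for KIF1B and -0.46 for KIF3B. With the length trend removed the calls of KIF3A (-0.31), KIF1B (-0.09) and KIF3B (-0.11) were lost. Among the remaining kinesins it was -0.95 for KIF24, -0.67 for KIF2A, -0.57 for KIF26A, -0.51 for KIFC3 and 1.15 for KIF21B. KIF21B and KIF26A were near 0 FPKM in KYSE410, and KIF26A lost its call with a pseudocount of 0.1 (-0.31) and with the length trend removed (-0.19).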

How the results depend on the processing

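All 12 mitotic motors were called higher in KYSE150 under each setting, except 11 with no filter on low values and without hypoxia replicate 3, and all 12 differed between lines under each. In KYSE410 the mitotic motors called higher, 1 as deposited, were 4 under median-of-ratios scaling, 3 under quantile normalization and 4 with the length trend removed. Those called lower in KYSE410, 8 as deposited, were 7 under each of these settings and 11 with a common sum. With a mean of at least 5 FPKM they were 6 of 10 tested. Among the other kinesins, those called higher in KYSE150 were 5 under median-of-ratios scaling, quantile normalization and length removal. Those called lower there ranged from 5 to 10 when a library was left out, with 10 without normoxia replicate 2. In KYSE410, 2 were called higher with no filter, 0 with a mean of at least 5 FPKM, 4 under median-of-ratios scaling, quantile normalization or length removal, 0 with a common sum, and 0 to 1 when a library was left out. Those called lower there were 6 with the length trend removed. Between lines, other kinesins with a higher KYSE410 response were 2 (pseudocount of 0.1), 3 (no filter), 0 (mean of at least 5 FPKM), 3 (median-of-ratios), 3 (quantile), 5 (length) and 1 to 2 (a library left out), and those with a lower one were 5 (length). The TTTGAA or TTCGAA count was 6 in the last 100 bases. The sign turned as follows. Under median-of-ratios scaling KIF3B was 0.0269 in KYSE150, and in KYSE410 KIF11, KIF22, KIFC1, CIT, FOXM1 and AURKB were 0.12, 0.21, 0.19, 0.14, 0.0292 and 0.0757. Under quantile normalization the first 5 were 0.12, 0.0642, 0.30, 0.29 and 0.00485 in KYSE410, and KIFBP was 0.0575 between lines. With a common sum KIF16B, MYBL2 and KLC4 were -0.00229, -0.0411 and -0.0489 in KYSE410, CIT was called lower there (-0.25), and E2F4, DYNC1I2 and MYBL2 were -0.12, -0.11 and -0.18 between lines. With the length trend removed KIF11, KIF22, KIF4A, KIFC1, KIF13B, KIF13A, KIF1C, KIF21A, RACGAP1, CIT and FOXM1 were 0.27, 0.17, 0.00898, 0.19, 0.0865, 0.0397, 0.0694, 0.00331, 0.0039, 0.47 and 0.0802 in KYSE410, and KIF5B, KLC1 and DYNC1LI1 were 0.18, 0.49 and 0.13 between lines, with KIF5B and KLC1 called. Leaving out a library put the KYSE410 KIF22 change between -0.0279 and 0.026 and the KYSE410 KIFC1 change between -0.038 and 0.0472. Between lines MYBL2 ranged from -0.00158 to 0.108. The cause was not tested. Other scalings moved the share of higher among all calls from 37.7% to 52.2% (median-of-ratios), 49.3% (quantile) and 50.4% (length) in KYSE150, from 37.6% to 48.5%, 49.8%, 50.4% and 26.6% (common sum) in KYSE410, and from 43.1% to 28.1% (common sum) between lines. For each gene the group mean was subtracted within each line and oxygen level. The deviations left in same-numbered normoxic and hypoxic libraries correlated by -0.07, 0.08 and 0.05 in KYSE150. In KYSE410 these correlations were -0.05, -0.01 and 0.02. No shared replicate effect was thus seen, but with 3 libraries per group the pairing of cultures is not settled. The replicate block left the kinesin counts at 12 higher and 0 lower mitotic motors in KYSE150, 1 and 8 in KYSE410, and 0 and 12 between lines, and the other kinesins at 3 and 6, 1 and 10, and 1 and 9. Count-based tests were not run because the files hold FPKM, and without depths no counting interval can be given.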
